A study of Solanum lycopersicum with 6 samples.

Results

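The class III homeodomain leucine zipper (HD-ZIP) genes of tomato (Solanum lycopersicum) were followed in RNA sequencing libraries of the shoot apex. The family was taken as a list of 6 identifiers described as the REVOLUTA, HB15/CORONA, PHABULOSA/PHAVOLUTA and HB8 types, and all 6 were found among the 34722 gene identifiers of the deposited table. They were Solyc11g069470.1, Solyc03g120910.2, Solyc02g024070.2, Solyc02g069830.2, Solyc08g066500.2 and Solyc12g044410.1, on chromosomes 11, 3, 2, 2, 8 and 12 as their identifiers give them by convention. The sources used here do not say which identifier is of which type, so each gene is called by its identifier.

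Class III HD-ZIP proteins are plant transcription factors that carry a homeodomain, a leucine zipper and a lipid-binding type START domain. In Arabidopsis they specify the adaxial (upper) side of lateral organs, are needed to form and maintain the shoot meristem, and pattern xylem and procambium. There their transcripts are cleaved by the microRNAs of the miR165/166 family, which confine them to the meristem, the adaxial side of leaf primordia and the vasculature, and the HB8 type is known as a marker of procambium. YABBY genes mark the opposite, abaxial side of lateral organs.

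The 6 libraries formed 3 groups of 2. The wild-type (WT) group was the WT apex, dissected as the meristem together with its 2 youngest leaf primordia. The lfs group was the meristem of the leafless mutant. The TIBA group was the meristem of pin-shaped shoots induced by spraying with 1 mM TIBA (triiodobenzoic acid, which blocks polar auxin transport); the genotype sprayed is not named in the labels. All plants were greenhouse seedlings of 14 to 18 days, fixed in acetone before dissection, and neither leafless group was dissected with primordia by its label. Repeats carry numbers, but whether plants or only libraries were repeated is not stated, and the p-values rest on a spread that may be technical in part.

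Each library held between 17640302 and 26054787 reads assigned to genes, and 19807 genes were tested. Values are the authors' DESeq2-normalized counts, that is reads per gene divided by 1 factor per library; they are not per length, so levels are compared between libraries and not between genes. The identifier recalled as that of LFS, the mutated gene, stood higher in lfs than in WT (log2 change 2.27, limma adjusted p = 0.0025). Of 2 identifiers recalled as shoot meristem genes, 0 were called in each of the 3 comparisons (limma). The shares of all genes called were 14.2% in lfs against WT, 18.6% in TIBA against WT and 4.6% in lfs against TIBA. A count of 0 among 2 identifiers is near these shares. Of 9 identifiers recalled as YABBY genes, 7 were tested. Of these, 6 were lower than WT in lfs and 6 in TIBA, beside 5.29% and 7.77% of all genes. Summed over all 9, the normalized count was 14116 and 14190 in WT, 202 and 245 in lfs, and 656 and 440 in TIBA. Between 1 and 3 of the 9 had no read, depending on the library. These identifiers came from memory and could not be checked against an annotation.

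In both leafless apices part of the HD-ZIP III family stood near 50% of its WT level. Against WT, Solyc11g069470.1 and Solyc02g069830.2 fell in lfs, and these genes and Solyc02g024070.2 fell in TIBA pins. Solyc03g120910.2 and Solyc12g044410.1 were not called in any comparison, with means in the leafless groups between 82.3% and 110.1% of WT. Solyc08g066500.2, which had few reads, was not called either. Its mean was 128.3% of WT in lfs and 49.9% in TIBA, where its libraries lay 2.04-fold apart. In RNA of dissected tissue, fewer cells that express a gene and less RNA per cell cannot be told apart. The summed YABBY list was also lower in both leafless groups. Only the WT samples held primordia by their labels, so tissue makeup cannot be told apart from mutation or treatment in this design. The part of tissue makeup in the HD-ZIP III result was not tested.

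As a family, 2 of 6 members were lower and 0 higher in lfs against WT (limma, adjusted p under 0.05), where 5.29% of all genes tested were lower and 8.90% higher, 14.2% in all. In TIBA against WT 3 were lower and 0 higher, beside 7.77% lower and 10.8% higher of all genes, 18.6% in all. The median log2 change of the 6 members was -0.29 in lfs and -0.99 in TIBA, while the medians of all genes were -0.001 and 0.01. Both comparisons use the same WT libraries, so they are not independent. Between lfs and TIBA 0 members were called (limma), beside 4.60% of all genes, 1.97% higher in lfs and 2.64% lower. There 2 members had an unadjusted p under 0.05 (limma). The share of all genes with such a p was not computed, so this count is not read as unusual. In the same comparison edgeR called 0 members (4.17% of all genes) and DESeq2 called 2 (10.1% of all genes). The authors' deposited table gave 0 members an adjusted p under 0.05 in this comparison, beside 5.65% of all genes.

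Both libraries of one group lay beyond both of the other for more members than were called. In lfs against WT this held for 3 members, all lower, beside 33.1% of all genes lower and 33.6% higher. In TIBA against WT it held for 5 members, all lower, beside 32.2% of all genes lower and 34.1% higher. In lfs against TIBA it held for 4 members, all higher in lfs, beside 25.3% of all genes higher and 23.6% lower.

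**Figure D1:**
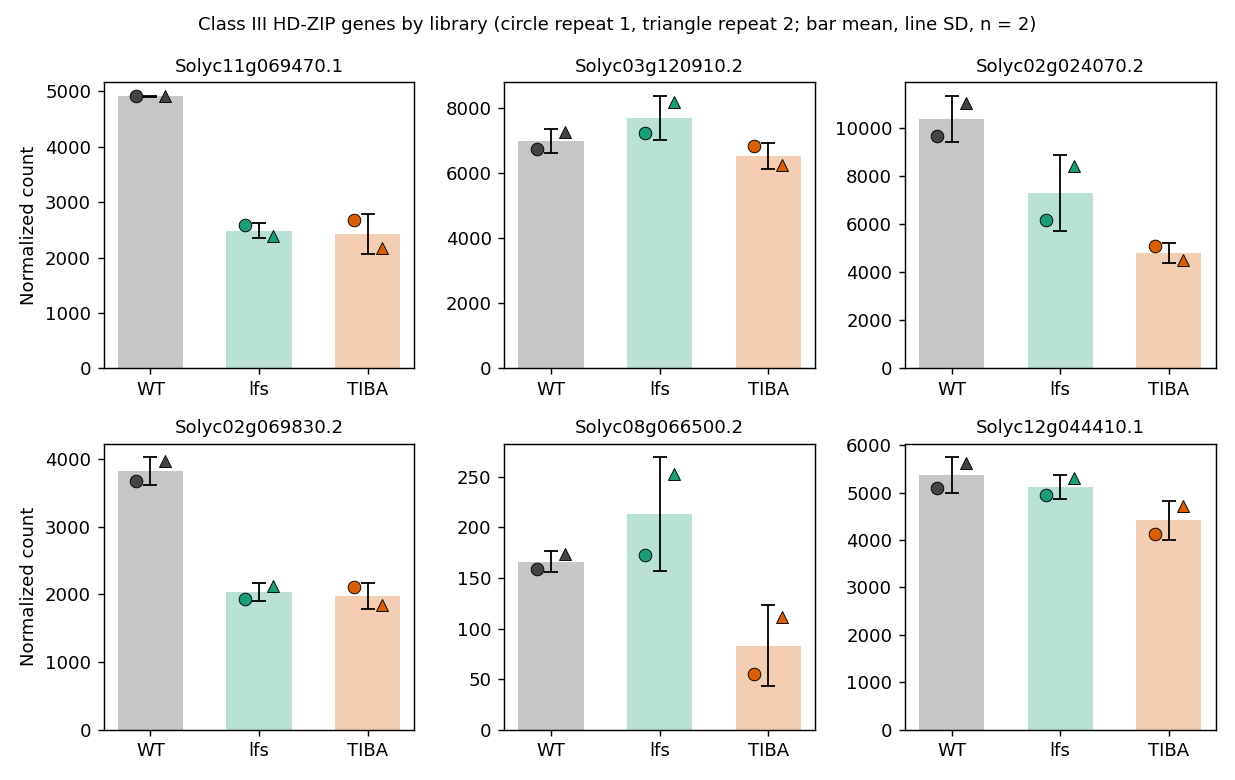
Normalized count (y axis) of each class III HD-ZIP gene in the 3 groups (x axis); bars are group means, lines the SD (n = 2), circles repeat 1 and triangles repeat 2, and each panel has its own scale. The lfs and TIBA libraries of Solyc11g069470.1 and Solyc02g069830.2 all lie below both WT libraries, whereas Solyc03g120910.2 has overlapping WT and lfs libraries.

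Solyc11g069470.1 stood at a normalized count of 4911 and 4918 in WT, at 2584 and 2388 in lfs, and at 2687 and 2164 in TIBA. All 4 leafless libraries lay between 44.0% and 54.7% of the WT mean, and neither leafless group overlapped WT. The WT mean was 4914 ± 5.01 (SD, n = 2). That of lfs was 2486 ± 139 (SD, n = 2) and that of TIBA 2426 ± 370 (SD, n = 2). The log2 change was -0.98 in lfs (SE 0.15, limma adjusted p = 0.0076) and -1.03 in TIBA (SE 0.15, limma adjusted p = 0.0067). The 2 leafless groups overlapped: lfs less TIBA was 0.04 on the log2 scale, with a 95% interval from -0.31 to 0.40 (limma adjusted p = 0.89). At 1808 reads or more per library, counting error was small beside these changes.

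Solyc02g069830.2 showed almost the same levels relative to WT. It was at 3676 and 3969 in WT, 1938 and 2132 in lfs, and 2113 and 1843 in TIBA. Both leafless groups lay below WT without overlap, at 53.2% of the WT mean in lfs and 51.7% in TIBA. The log2 change was -0.91 in lfs (SE 0.14, limma adjusted p = 0.0077) and -0.95 in TIBA (SE 0.14, limma adjusted p = 0.0067). The lfs and TIBA libraries overlapped, with a log2 difference of 0.04 and a 95% interval from -0.29 to 0.38. Within each library its reads kept nearly the same ratio to those of Solyc11g069470.1, a quantity free of the library scaling. The log2 ratio of Solyc11g069470.1 to Solyc02g069830.2 moved from its WT mean by 0.05 and -0.20 in lfs and by -0.02 and -0.13 in TIBA, against 0.05 and -0.05 in the WT libraries themselves.

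Solyc02g024070.2 was lower than WT in TIBA pins and lay between the other groups in lfs. Its normalized counts were 9672 and 11036 in WT, 6160 and 8411 in lfs, and 5076 and 4508 in TIBA. No pair of groups overlapped, and the lfs libraries were the furthest apart, at 59.5% and 81.2% of the WT mean. The decrease in TIBA to 46.3% of the WT mean passed the test (log2 -1.11, SE 0.19, limma adjusted p = 0.0097). The change in lfs did not (log2 -0.52, SE 0.19, 95% interval -0.96 to -0.08, limma adjusted p = 0.11), nor did the difference between lfs and TIBA (log2 0.59, SE 0.19, 95% interval 0.15 to 1.03, limma adjusted p = 0.12). These intervals are not adjusted for the number of genes. With a weight per group the change in lfs was called (limma adjusted p = 0.039, range over all alternatives 0.039 to 0.48), and DESeq2 called the difference between lfs and TIBA (DESeq2 adjusted p = 0.036, range 0.036 to 0.42). The authors' deposited table, also from DESeq2, gave that difference for Solyc02g024070.2 as log2 0.60 with an adjusted p of 0.44.

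Solyc03g120910.2 was not called in any comparison. It was at 6733 and 7258 in WT, 7229 and 8180 in lfs, and 6823 and 6254 in TIBA. WT overlapped both leafless groups, while the lfs libraries both lay above the TIBA libraries. The 95% interval of the log2 change ran from -0.20 to 0.47 in lfs and from -0.43 to 0.24 in TIBA, neither of which reaches a 2-fold change. The difference between lfs and TIBA was 0.24 on the log2 scale (limma adjusted p = 0.37).

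Solyc12g044410.1 was likewise not called. Its normalized counts were 5095 and 5632 in WT, 4939 and 5305 in lfs, and 4119 and 4708 in TIBA. The lfs libraries overlapped WT, and the TIBA libraries lay below both other groups. The TIBA mean was 82.3% of WT (log2 -0.28, SE 0.14, 95% interval -0.62 to 0.06, limma adjusted p = 0.21), and the lfs mean was 95.5% of WT (log2 -0.07, 95% interval -0.40 to 0.27). For lfs less TIBA the log2 difference was 0.22, with a 95% interval from -0.12 to 0.55.

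Solyc08g066500.2 had the fewest reads of the family, 66 to 311 per library, and the widest spread. It was at 159 and 173 in WT, 173 and 253 in lfs, and 54.6 and 111 in TIBA. The TIBA libraries were the lowest and differed from each other 2.04-fold. Their exact 95% Poisson intervals, 42.2 to 69.5 and 89.8 to 136, did not overlap, so counting error alone does not cover that gap; the intervals cover counting error only. The log2 change in TIBA was -1.08 (SE 0.38, 95% interval -1.96 to -0.20, limma adjusted p = 0.087), that in lfs was 0.33 (SE 0.38, 95% interval -0.55 to 1.21, limma adjusted p = 0.61), and lfs exceeded TIBA by 1.41 (SE 0.38, 95% interval 0.53 to 2.29, limma adjusted p = 0.083). None of these passed the test. The call depended on 1 library and on the tool. Without TIBA replicate 2, the library with the higher value, TIBA was called lower than WT (log2 -1.59, limma adjusted p = 0.024) and lower than lfs (log2 difference 1.92, limma adjusted p = 0.034). Without TIBA replicate 1 neither was called (log2 -0.57, limma adjusted p = 0.17, and log2 difference 0.90, limma adjusted p = 0.081). In both fits the lone TIBA library is assumed to vary like the other groups. DESeq2 called the difference between lfs and TIBA (log2 1.37, DESeq2 adjusted p = 0.016; range over all alternatives 0.016 to 0.35), whereas the authors' deposited table gave for Solyc08g066500.2 log2 1.37 with an adjusted p of 0.17.

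**Figure D2:**
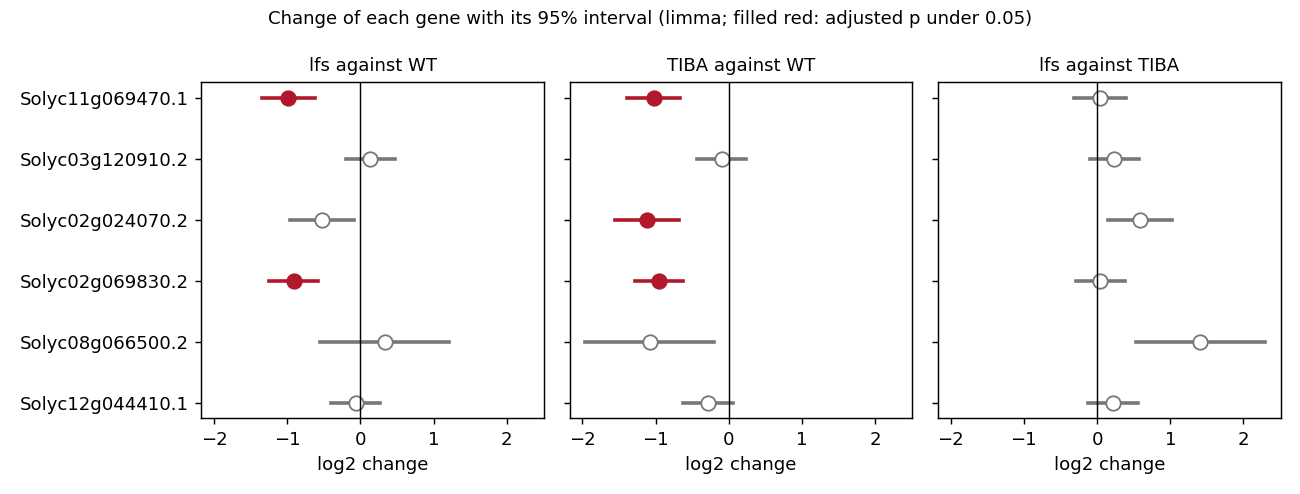
Log2 change (x axis) of each class III HD-ZIP gene (y axis) with its 95% interval in the 3 comparisons, from limma on log2(normalized count + 1) over all 6 libraries; filled red points have an adjusted p under 0.05. Red points lie near -1, at -0.98 and -0.91 in lfs and between -1.11 and -0.95 in TIBA, and no point is red for lfs against TIBA.

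Leaving out either WT replicate left 0 members called by limma in lfs and 0 in TIBA, with adjusted p-values of 0.069 to 0.086 for the 2 members called in lfs and 0.058 to 0.091 for the 3 called in TIBA. Of all genes, 2.73% (without WT replicate 1) and 4.35% (without WT replicate 2) were called in lfs in these fits, and 3.33% and 3.55% in TIBA, so a count of 0 among 6 members is near the background. The lone WT library is there assumed to vary like lfs and TIBA, whose replicates lay further apart. The log2 changes of these members were between -1.21 and -0.85. Without lfs replicate 1 only Solyc11g069470.1 was called in lfs (limma adjusted p = 0.058 for Solyc02g069830.2). In the authors' deposited table the same 2 members in lfs and 3 in TIBA had an adjusted p under 0.05, beside 11.6% and 14.3% of all genes. For Solyc11g069470.1 the authors' deposited table gave a log2 fold change of -0.98 in lfs (adjusted p = 0.0036) and -1.02 in TIBA (adjusted p = 0.0020).

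Replicates of most members lay closer together than those of a typical gene. The members and all genes were not matched for level, and counting error widens the spread of genes with few reads. Over the 6 members the median replicate SD on the log2 scale was 0.083 for WT, 0.11 for lfs and 0.14 for TIBA, against 0.092, 0.16 and 0.23 over all genes tested. The widest were Solyc08g066500.2 at 0.72 in TIBA and 0.38 in lfs, and Solyc02g024070.2 at 0.32 in lfs.

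Summed over the 6 members, the normalized count was 30246 and 32986 in WT, 23023 and 26668 in lfs, and 20872 and 19588 in TIBA. The groups did not overlap, and the means were 78.6% of WT in lfs and 64.0% in TIBA. The sum is weighted towards the members with most reads.

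Ratios of reads between 2 members within 1 library do not depend on how libraries were scaled. The log2 ratio of Solyc11g069470.1 to Solyc03g120910.2 moved from its WT mean by -0.98 and -1.27 in lfs and by -0.84 and -1.02 in TIBA, while the WT libraries lay at 0.05 and -0.05. The ratio of Solyc02g069830.2 to Solyc12g044410.1 moved by -0.86 and -0.83 in lfs and by -0.48 and -0.86 in TIBA, with WT at 0.02 and -0.02. Between the uncalled members, the ratio of Solyc03g120910.2 to Solyc12g044410.1 moved by 0.17 and 0.24 in lfs and by 0.34 and 0.03 in TIBA. Against the third uncalled member, Solyc08g066500.2, the TIBA libraries went in opposite directions: the log2 ratio of Solyc11g069470.1 to it moved by -0.99 and -1.65 in lfs, and by 0.73 and -0.61 in TIBA. The ratios are given as descriptions and were not tested.

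The ratio between the members on chromosome 2 shifted in opposite directions in the leafless groups. The log2 ratio of Solyc02g024070.2 to Solyc02g069830.2 lay above both WT libraries in lfs, at 0.23 and 0.54 from the WT mean, and below both in TIBA, at -0.17 and -0.15, with WT at -0.04 and 0.04. The ratio of Solyc08g066500.2 to Solyc12g044410.1 moved likewise by 0.18 and 0.62 in lfs and by -1.22 and -0.39 in TIBA.

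**Figure D3:**
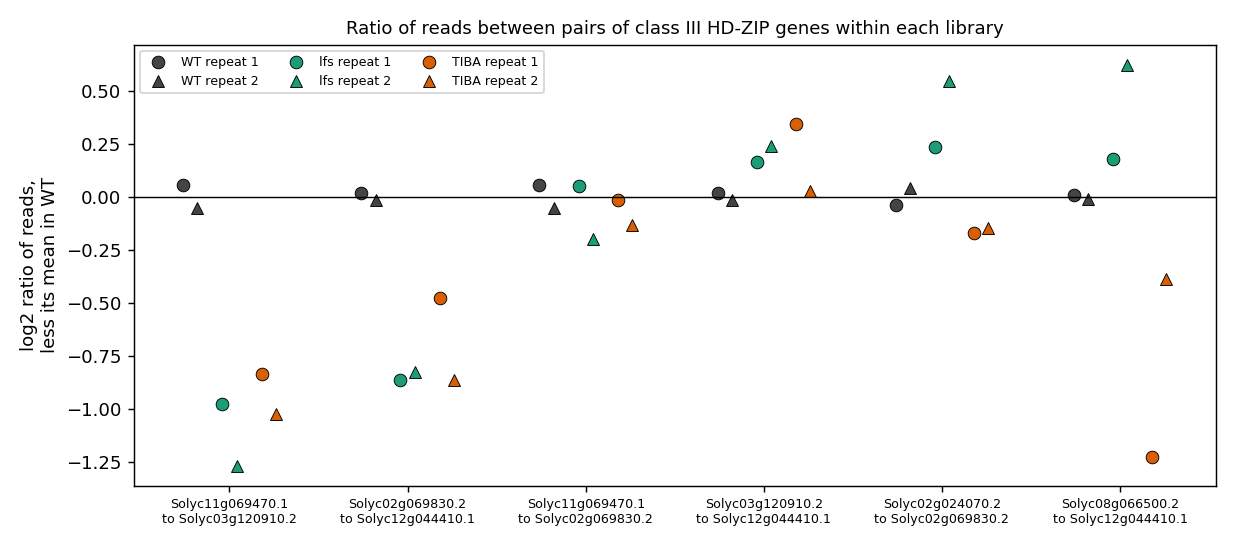
Log2 ratio of the reads of 2 class III HD-ZIP genes within each library, less its mean in WT (y axis), for 6 pairs of genes (x axis); each point is a library, circles repeat 1 and triangles repeat 2. The first 2 pairs, of Solyc11g069470.1 to Solyc03g120910.2 and of Solyc02g069830.2 to Solyc12g044410.1, lie between -1.27 and -0.48 in all 4 leafless libraries; the last 2 pairs lie above WT in lfs and below WT in TIBA.

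Over the 6 libraries, which form 3 groups and are not independent points, Pearson's r of log2(normalized count + 1) was 0.98 between Solyc11g069470.1 and Solyc02g069830.2 and -0.02 between Solyc11g069470.1 and Solyc03g120910.2. Solyc08g066500.2 and Solyc12g044410.1 had an r of 0.90. With the mean profile of the 6 members, r was highest for Solyc02g024070.2 (0.98) and lowest for Solyc03g120910.2 (0.47). That profile includes each member itself, which raises the r of members but not of other genes. Among 9287 other genes that varied at least as much as this profile, the 2 most alike were Solyc06g075420.1 (r = 0.998) and Solyc11g010540.1 (r = 0.997), and 226 genes had an r over 0.95. Solyc06g075420.1 was at 903 and 985 in WT, 574 and 707 in lfs, and 411 and 440 in TIBA. Solyc11g010540.1 was at 25.1 and 32.9 in WT, 14.2 and 19.5 in lfs, and 6.62 and 8.38 in TIBA.

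The tasiRNA-targeted auxin response factors act with the abaxial programme in Arabidopsis. Of 4 identifiers recalled as such factors, 1 was lower and 0 higher in lfs against WT (limma). In TIBA against WT 0 were called, and in lfs against TIBA 1 was lower and 0 higher. Of all genes tested, 14.2%, 18.6% and 4.6% were called in these comparisons, so such counts among 4 identifiers say little. The log2 changes of these identifiers against WT ran from -1.34 to 0.02 in lfs and from -0.52 to 0.22 in TIBA. The tested identifiers recalled as YABBY genes had a median log2 change of -4.99 in lfs and -4.69 in TIBA. The medians of the HD-ZIP III members were -0.29 and -0.99, and the difference between the lists was not tested. The YABBY identifiers ran from -9.12 to -1.23 in lfs and from -8.11 to 0.42 in TIBA. In lfs against TIBA 1 of the 7 tested was higher and 1 lower (limma), beside 4.6% of all genes called.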

How the data were processed

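Per the submitters' processing notes, TopHat2 (2.0.10), HTSeq (0.6.1p1) and DESeq2 (1.6.3) were used to align, count and analyse the reads; no build, annotation or setting is named there. Per the file headers, the deposited table gives DESeq2-normalized counts, a signal of gene counts over 1 factor per library. It also holds a log2 fold change, a p-value and its adjusted value from the authors for each pair of groups. All values (100%) were whole multiples, within 0.001 reads, of the value of 1 read, so reads were recovered. Depth sets the counting error of each value.

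The main test was limma (3.58.1, R 4.3.3) with trend and robust moderation on log2(normalized count + 1), which understates changes of low genes. All 3 groups were fitted together on the 19807 genes with a normalized count of at least 10 in at least 2 libraries, with Benjamini-Hochberg adjustment over them and a threshold of 0.05. All 6 members passed the filter. Alternatives used edgeR (4.0.16) and DESeq2 (1.42.0) on recovered reads, other pseudocounts, filters, scaling and weights, a replicate block, the compared groups alone, and each library left out. The limma fit was tested on simulated data.

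The members and lists were chosen with earlier results of these data known. All members are named; the 2 genes most alike were taken by Pearson's r with the members' mean profile among genes of at least its SD. The identifiers of the YABBY, auxin response factor, meristem and LFS lists came from memory. Of the 34722 identifiers 0 matched the reference table (RefSeq, SLM_r2.1).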

Additional observations from a re-analysis of the deposited data

Results flagged for a closer look

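Of 15 pairs of class III HD-ZIP genes, 3 had a within-library ratio that lay above both WT libraries in both libraries of one leafless group and below them in both of the other. The pairs share 6 genes and are not independent, and the share of such pairs among all genes was not computed. The count of 3 is therefore not read as unusual. The difference between the groups in these ratios was not tested. For Solyc02g024070.2 to Solyc02g069830.2 the mean log2 shift from WT in lfs less that in TIBA was 0.55. For Solyc08g066500.2 to Solyc12g044410.1 it was 1.21. For Solyc03g120910.2 to Solyc08g066500.2 it was -1.19. There lfs repeat 1 lay at -0.013 from the WT mean, barely below the lower WT library at -0.0084. The mean shift of this pair was -0.20 in lfs and 0.99 in TIBA. The last 2 pairs share Solyc08g066500.2, the gene with the fewest reads and with TIBA libraries 2.04-fold apart.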

How the results depend on the processing

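Each of the 18 changes of the 6 members was recomputed under 16 alternatives, 288 values in all, of which 267 kept direction and side of the threshold, 11 lost the call, 5 gained it and 5 reversed. The call losses all came from leaving out a WT replicate or lfs replicate 1; such fits have fewer libraries and called fewer of all genes. Reversals were all of uncalled values near 0 with a library left out: Solyc12g044410.1 in lfs against WT (0.0065 without WT replicate 2), and in lfs against TIBA Solyc11g069470.1 (-0.014 without lfs replicate 1, -0.11 without TIBA replicate 2; range -0.11 to 0.20) and Solyc02g069830.2 (-0.026 without lfs replicate 2, -0.056 without TIBA replicate 2; range -0.056 to 0.14).

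With a library left out, Solyc11g069470.1 ranged from -1.04 to -0.93 in lfs and -1.18 to -0.87 in TIBA, Solyc02g069830.2 from -0.98 to -0.84 and -1.05 to -0.85, and Solyc02g024070.2 in TIBA from -1.21 to -1.02. Solyc08g066500.2 ranged from -1.59 to -0.57 in TIBA against WT and from 0.90 to 1.92 in lfs against TIBA. For Solyc02g024070.2 the change in lfs was -0.52 with a weight per group, where it was called. Its difference of lfs less TIBA was 0.60 with DESeq2, which called it. Solyc08g066500.2 had 1.37 there and was also called. With a library left out, the number of all genes called also moved from fit to fit. Counts of members called in such fits are therefore not read as unusual. Members called ranged from 0 to 2 in lfs against WT, 0 to 4 in TIBA against WT and 0 to 1 in lfs against TIBA with a library left out, and DESeq2 called 2 in the last.

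Over all genes, the 2810 called in lfs against WT became 5020 with a weight per group, 4494 with only the groups compared, and 536 to 4451 with a library left out. The 3681 in TIBA against WT became 654 to 6502 with a library left out. The 912 in lfs against TIBA became 2008 with DESeq2, 360 with a weight per group, 369 with only the groups compared, and 103 to 2734 with a library left out. With the replicate number as a block they became 474, and no call of a member changed. Deviations of same-numbered libraries correlated at 0.02 (WT and lfs), -0.05 (WT and TIBA) and -0.14 (lfs and TIBA) over 19807 genes. A shared batch need not move genes alike in every group, so these values cannot show whether same-numbered libraries shared one. The labels do not say what the number stands for. No scaling moved the median of all genes by over 0.1 log2 units. Depth matters most for Solyc08g066500.2, the member with the fewest reads, but counting error alone did not cover the gap between its TIBA libraries.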
